A study of Mus musculus with 35 samples.

Results

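Lung RNA of mice given 54 µg of NRCWE-043 was set against lung RNA of control mice given 0 µg, on 5 arrays each, 10 of the 35 arrays in the series. The arrays were chosen by their titles. NRCWE-043 is known here only by its code name, and the series title places it among nanomaterials. All mice were female C57BL/6 animals, 5 to 7 weeks old. The treated mice received the material once, by instillation into the trachea in 40 µl, and tissue was taken 24 h later. The labels give the controls' dose as 0 µg and no vehicle. Also used below are the groups given NRCWE-044 at 54 µg, NRCWE-045 at 54 µg and NRCWE-043 at 18 µg, each of 5 arrays. RNA came from random lung sections, so each value averages over all cells of a section, and no label says whether each array of a group is a different mouse. The p-values therefore measure only the spread between these samples, part of which may be technical. In such bulk samples a lower value from fewer cells of a type and one from less RNA per cell cannot be told apart.

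Inhaled particles reach the alveoli, where macrophages and epithelial cells release cytokines and chemokines that draw neutrophils and monocytes from the blood. The lung also makes acute phase proteins, the serum amyloid A proteins above all, which circulate and bind lipoproteins. Interferon-stimulated genes answer type I and type II interferons through STAT and IRF factors, whose complexes bind a short repeated element in their promoters.

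Each value is the log2 ratio of the lung (Cy5) signal to that of a universal mouse reference RNA (Cy3), so that 0 means equal signals. A change is the NRCWE-043 mean minus the control mean of these log2 ratios, and a fold change is its antilog. Values by array are given in the order NRCWE-043 replicates 3, 9, 16, 19 and 22, then control replicates 2, 7, 15, 29 and 30. A feature (a gene, or a probe with no matched gene) was called at an adjusted p under 0.05 in limma, adjusted by Benjamini-Hochberg over all 25534 features. "Rose" and "fell" are used only of called features. The groups are said not to overlap where all 5 values of one lie above all 5 of the other.

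The tissue showed the markers of lung. All 12 tested markers of alveolar type 2 cells and all 9 tested markers of club cells were well above background on every control array. Between 46.2 and 56.6% of probes were well above background in Cy5 on the NRCWE-043 arrays, against 45.6 to 60.3% on the control arrays. Markers of heart muscle, fat and liver varied between arrays. The mean log2 ratio of 13 heart muscle markers ran from -0.14 to 1.62 on the NRCWE-043 arrays, against 2.43 in control 2, 2.63 in control 29 and -0.22 to -0.06 in the other controls. That of 8 adipose markers was 4.42 in NRCWE-043 replicate 9 and 3.00 in replicate 19, against 0.66 to 1.13 in the other NRCWE-043 arrays and 1.00 to 1.97 in controls. That of 6 liver markers was 2.01 in control 7 and 0.24 to 0.50 in the other controls. None of the heart, adipose or liver markers was called by limma, and 0 of them had an unadjusted p under 0.05. Control 7 and control 29 also stood apart in several gene groups below, and counts of list members that move by 1.5-fold or more without both are given without them.

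Of the 25534 features, 2607 (10.2%) were called, 1361 higher (5.33%) and 1246 lower (4.88%). These percentages are the background for the member counts that follow. At an unadjusted p under 0.05 there were 5863 (23%). The groups did not overlap for 2126 features (8.33%). Of all features 1180 (4.62%) were called and also changed by at least 1.5-fold, 582 higher (2.28%) and 598 lower (2.34%). Median centring of each array in place of loess gave 524 calls, 351 higher and 173 lower, and kept 498 of the 2607 (19.1%). The scanner software's processed signals gave 3312, 1013 higher and 2299 lower. Without control 30 there were 1441 calls. Of the 149 called genes named in the text, 118 stayed called when any 1 of the 10 arrays was left out, and 76 under median centring. Under median centring the list members called higher included 9 CC chemokines, 8 acute phase genes, 6 pattern recognition genes, 6 genes of the unfolded protein response, 5 interferon-stimulated genes, 4 cell cycle genes and 4 cholesterol synthesis genes. H2-Q4 and Slc26a1 were then the only list members called lower. The median change over all features was 0.008. Probes with no matched gene made up 45.6% of the falls and 21.7% of the rises, against 38.8% of all features. Slides 1 and 3 held arrays of both groups. Within slide 1, 97.2% of the rises and 99% of the falls kept their sign, and within slide 3, 99.9% of both did, which is a description only, since the features were called on these same arrays.

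**Figure D1:**
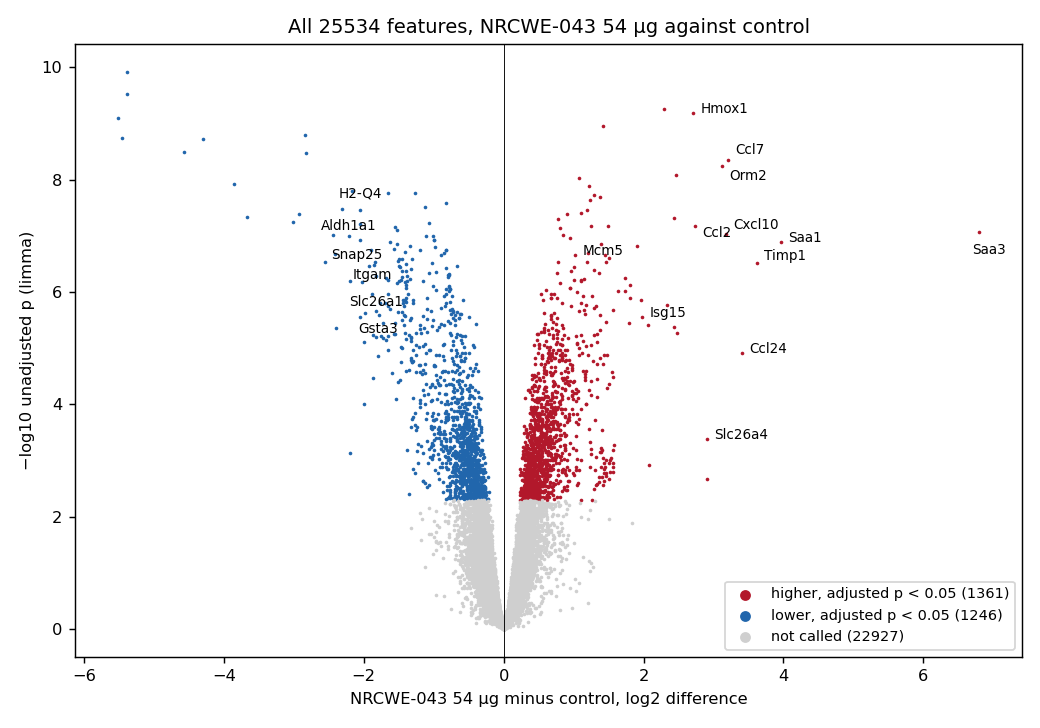
Change (NRCWE-043 54 µg minus control, log2, x axis) against the negative log10 of the unadjusted limma p (y axis) for all 25534 features, red where higher and blue where lower. Saa3 lies farthest to the right at 6.80, and H2-Q4 is labelled among the falls at -2.31.

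The acute phase list held the largest single rise, that of Saa3. Of 19 tested members 10 rose (52.6%, against 5.33% of all features), and the median change of the list was 0.90. Without controls 7 and 29 the count was 12. Saa3, a serum amyloid A made by inflamed tissue, had log2 ratios of 2.99, 4.48, 4.42, 4.08 and 5.15 on the NRCWE-043 arrays, against -3.27, -3.73, -4.06, 1.31 and -3.11 on the control arrays. The groups did not overlap, although control 29 lay far above the other controls. Saa3 rose by 6.80 (SE 0.99, 111-fold, limma adjusted p = 5.1e-05). Saa1, a serum amyloid A also made by the liver, had 2.67, 3.94, 4.02, 3.87 and 4.51 on the NRCWE-043 arrays, against -0.94, 0.39, -1.13, 1.51 and -0.63 on the control arrays. It rose by 3.96 (SE 0.59, 15.6-fold, adjusted p = 5.9e-05). Saa2 had 2.40, 3.30, 3.00, 2.85 and 3.35 on the NRCWE-043 arrays, against -0.11, 2.21, -0.15, 0.83 and -0.10 on the control arrays, and rose by 2.44. Control 7 was the highest control for Saa2, and control 29 for Saa1 and Saa3.

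The orosomucoids, lipid-binding plasma proteins, rose together. Orm2 had 3.53, 3.78, 3.38, 2.98 and 4.32 on the NRCWE-043 arrays, against 0.30, 0.14, -0.11, 1.91 and 0.17 on the control arrays, and rose by 3.12 (SE 0.40, adjusted p = 1.1e-05). Orm1 rose by 2.47 (SE 0.32, adjusted p = 1.5e-05). The protease inhibitors Serpina3m and Serpina3n rose by 1.73 and 1.22, and neither overlapped the controls. Serpina3n lost its call with the scanner software's processed signals (limma adjusted p = 0.87), and its lowest change over the 27 alternatives was 0.15. Lcn2, a siderophore-binding protein of neutrophils and epithelium, had 3.76 to 4.28 on the NRCWE-043 arrays, against 1.71 to 2.58 in 4 controls and 4.01 in control 29, and rose by 1.41. The copper carrier Cp (1.06) and the heme binder Hpx (0.80) rose too, each with overlap. Haptoglobin, Hp, averaged 5.73 in both groups. The fibrinogen chain Fgb was 1.69 in control 7, against 0.00 to 0.19 in the other controls and -0.07 to 0.16 on the NRCWE-043 arrays. The liver markers listed above include Fgb and share that high value.

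CC chemokines draw monocytes, macrophages and eosinophils. Of 15 tested members 9 rose (60%) and 1 fell, with a median change of 1.38. Ccl7, a monocyte attractant, had -0.98, -0.61, 0.03, -0.28 and -0.59 on the NRCWE-043 arrays, against -3.77, -4.18, -4.30, -2.25 and -4.02 on the control arrays. The groups did not overlap, and Ccl7 rose by 3.21 (SE 0.41, 9.28-fold, adjusted p = 9.4e-06). Ccl2, the main ligand of the monocyte receptor Ccr2, had -2.35, -1.88, -1.40, -1.67 and -1.92 on the NRCWE-043 arrays, against -4.46, -4.82, -5.42, -3.42 and -4.75 on the control arrays. It rose by 2.73 (SE 0.39, 6.63-fold, adjusted p = 4.3e-05). Ccl8, Ccl12, Ccl4, Ccl9 and Ccl3 rose by 2.06, 1.38, 1.81, 1.79 and 0.88 without overlap.

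The eosinophil attractants Ccl24 and Ccl11 rose less evenly. Ccl24 had 1.01, 1.39, 1.52, 1.43 and -1.17 on the NRCWE-043 arrays, against -2.50, -3.35, -2.96, -1.11 and -2.93 on the control arrays. It rose by 3.41 (SE 0.66, adjusted p = 0.00085), and only NRCWE-043 replicate 22 fell within the range of the controls. Ccl11 rose by 1.39 (adjusted p = 0.012), with replicate 22 again the lowest NRCWE-043 array at 0.92, below control 29 at 0.97. Ccl27a, an epithelial T cell attractant, fell by 0.63, while another of its 3 probes changed by 0.14. Ccl5 and Ccl17 were not called, at -0.32 and 1.21.

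Among 15 tested CXC and other chemokines 5 rose (33.3%) and 1 fell. Cxcl10, an interferon-induced ligand of Cxcr3, had 0.30, 0.93, 1.80, 1.91 and 2.72 on the NRCWE-043 arrays, against -1.69, -1.70, -1.95, -0.67 and -2.24 on the control arrays. The groups did not overlap, and it rose by 3.18 (SE 0.47, 9.09-fold, adjusted p = 5.2e-05). Its relative Cxcl9 had 0.22, 0.94, 0.98, 1.15 and 3.46 on the NRCWE-043 arrays, against 0.15, -0.19, 0.28, 0.32 and 0.04 on the control arrays, and rose by 1.23. A second Cxcl9 probe of similar brightness changed by 0.49. The call of Cxcl9 was lost in 7 of 27 alternatives, among them leaving out NRCWE-043 replicate 22. Cxcl9 was not well above background on any control array, which leaves only a bound, at least 2.11-fold higher at its brighter probe. Cxcl3, which draws neutrophils, was likewise not well above background on any control array and rose at least 1.49-fold. Cxcl13, a B cell attractant, rose by 1.26 (adjusted p = 0.049) and platelet factor Pf4 by 0.75. The call of Cxcl13 was lost in 18 of 27 alternatives. Cxcl14 fell by 0.55. Without controls 7 and 29, 3 rose and none fell. The neutrophil attractants Cxcl1 and Cxcl5 were not called (0.90, adjusted p = 0.16, and 1.14, adjusted p = 0.23).

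Of 19 tested chemokine receptors 3 rose (15.8%). Cxcr2, the neutrophil receptor for Cxcl ligands, had 1.98, 2.07, 1.97, 1.82 and 2.57 on the NRCWE-043 arrays, against 0.43, 1.04, 0.22, 1.06 and 0.39 on the control arrays. It rose by 1.45 (SE 0.22, adjusted p = 7.8e-05). Ccr2, a receptor of monocytes, rose by 1.16. Neither of these genes overlapped the controls. Without controls 7 and 29, 7 receptors rose. Cx3cr1 (0.78, adjusted p = 0.12) and Cxcr3 (0.20) were not called.

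**Figure D2:**
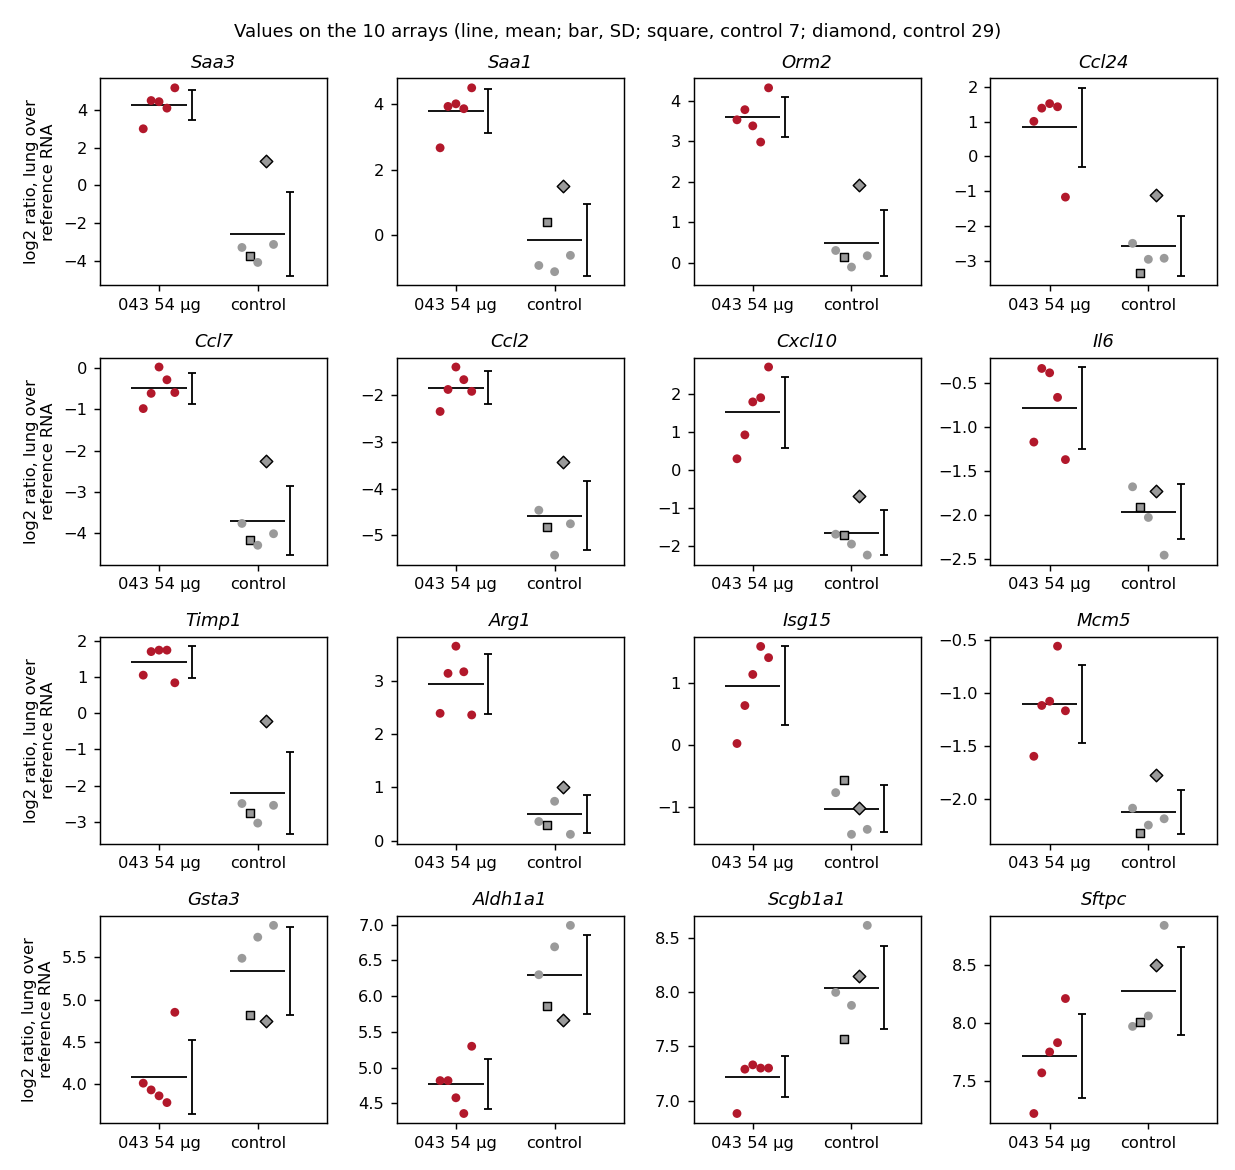
Log2 ratio (y axis) of leading genes on each of the 5 NRCWE-043 54 µg arrays (left in each panel) and 5 control arrays (right), with lines at the group means, bars for the SD, a square for control 7 and a diamond for control 29. Saa3 averages 4.22 against -2.57, and control 29 at 1.31 lies apart from the other controls.

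In the interleukin-1 family 6 of 12 tested genes rose (50%). Il1b, a cytokine of activated macrophages, had 2.72, 2.73, 1.83, 2.73 and 2.71 on the NRCWE-043 arrays, against 0.31, 1.22, 0.45, 1.36 and 0.69 on the control arrays, and rose by 1.74 (SE 0.29, adjusted p = 0.00017). The decoy receptor Il1r2 rose by 1.57, the alarmin Il33 by 1.43 and the interleukin-18 inhibitor Il18bp by 1.18. The receptor antagonist Il1rn rose by 0.40 and the shared receptor chain Il1rap by 0.59. All 6 genes were apart from the controls on every array. Il1a was not called (0.04).

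In the interleukin-6 family and its feedback 6 of 18 tested genes rose (33.3%) and 1 fell. Il6 had -1.17, -0.33, -0.38, -0.66 and -1.37 on the NRCWE-043 arrays, against -1.68, -1.91, -2.03, -1.73 and -2.46 on the control arrays, and rose by 1.18 (adjusted p = 0.0039). The feedback inhibitors Socs1 and Socs3 rose by 1.21 and 0.77, without overlap. The oncostatin M receptor Osmr rose by 0.42, and the receptor chain Il6ra fell by 0.49. The transcription factor Stat3 was not called (0.13).

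Of 19 tested TNF superfamily and colony-stimulating factor genes 6 rose (31.6%) and 2 fell, and 8 rose and 3 fell without controls 7 and 29. Tnf rose by 0.55, Csf1, a macrophage growth factor, by 0.55, and the costimulatory ligand Tnfsf9 by 1.16, each without overlap. Tnfrsf12a, the TWEAK receptor, had -1.14, -1.26, -1.96, -1.90 and -1.75 on the NRCWE-043 arrays, against -2.69, -2.03, -3.45, -3.62 and -2.92 on the control arrays, and rose by 1.34 (SE 0.25, adjusted p = 0.00053). The neutrophil growth factor receptor Csf3r had 0.62 to 0.87 on the NRCWE-043 arrays, against 1.39 to 1.94 on the control arrays, and fell by 0.90. Csf3r correlated with Snap25, described with the shared profile below, at 0.95 over the 10 arrays and 0.9 over all 35. Among 17 tested NF-kB targets 3 rose (17.6%), namely Selp, an endothelial adhesion receptor (0.85), and the subunits Nfkb2 (0.66) and Relb (0.62). The inhibitor Nfkbia (-0.03) and the adhesion molecule Icam1 (0.16) were not called.

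The promoters of some of these genes hold an NF-kB motif, searched as GGG, any 2 bases and TTTCC on both strands in the 250 bases before the start site in the RefSeq table of GRCm38.p6. The motif was found in 1 of 15 acute phase promoters (6.67%), 1 of 9 CC chemokine promoters (11.1%) and 3 of 13 promoters of NF-kB targets (23.1%), against 447 of all 27025 promoters (1.65%). The stretches below come from members that rose. Each is printed 5′ to 3′ on the strand of the gene, with the motif in capitals.
Serpina3n, chr12:104406522-104406561, plus strand: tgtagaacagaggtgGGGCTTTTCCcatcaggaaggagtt
Ccl9, chr11:83578647-83578686, minus strand: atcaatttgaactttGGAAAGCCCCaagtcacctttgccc
Nfkb2, chr19:46304711-46304736, plus strand: ctcggggggccgaaaGGGGCTTTCCc
A match is a description of letters and not of a bound site.

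Interferon-stimulated genes rose broadly. Of 29 tested members 15 rose (51.7%), and the median change was 0.66. Isg15, a ubiquitin-like modifier, had 0.02, 0.63, 1.13, 1.58 and 1.40 on the NRCWE-043 arrays, against -0.77, -0.56, -1.44, -1.01 and -1.36 on the control arrays. The groups did not overlap, and Isg15 rose by 1.98 (SE 0.35, 3.95-fold, adjusted p = 0.00034). The nucleic acid sensor Zbp1 and the virion-tethering protein Bst2 each rose by 1.48. Ifit1, which binds viral RNA, had 0.28, 0.49, 1.04, 1.37 and 1.45 on the NRCWE-043 arrays, against -0.25, -0.55, -0.22, -0.20 and -0.14 on the control arrays, and rose by 1.20. The factor Irf7 rose by 1.16 (adjusted p = 0.0019). NRCWE-043 replicate 3 was the lowest treated array for Isg15, Ifit1 and Irf7. Oas1a, which senses double-stranded RNA, had -1.07, -0.29, 0.70, 0.91 and 0.13 on the NRCWE-043 arrays, against -1.31, -1.57, -0.90, -0.63 and -2.06 on the control arrays, and rose by 1.37 with overlap. The antiviral enzyme Rsad2 rose by 0.99 (adjusted p = 0.024), also with overlap.

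The element of such genes, the interferon-stimulated response element, was searched as GAAA, any 2 bases and GAAA on both strands in the same 250 bases. It was found in 10 of the 23 tested members that have a promoter in the table (43.5%), against 936 of all 27025 promoters (3.46%). It was present in 6 of the 11 called members with a promoter. The stretches below show 5 of these 6, with all matched bases in capitals. Matches overlap in Isg15, Oas1a and Bst2.
Isg15, chr4:156200860-156200911, minus strand: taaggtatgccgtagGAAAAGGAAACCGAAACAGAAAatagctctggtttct
Ifit1, chr19:34640770-34640828, plus strand: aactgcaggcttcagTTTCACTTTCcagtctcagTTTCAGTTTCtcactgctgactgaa
Oas1a, chr5:120907526-120907560, minus strand: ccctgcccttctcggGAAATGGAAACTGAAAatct
Rsad2, chr12:26456548-26456587, minus strand: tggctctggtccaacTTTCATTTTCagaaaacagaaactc
Bst2, chr8:71537572-71537617, minus strand: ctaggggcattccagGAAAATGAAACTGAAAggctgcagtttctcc
The match lies on the other strand in Ifit1 and Rsad2, where it reads TTTC.

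Of 21 tested genes of MHC class I and antigen processing 6 rose (28.6%) and 1 fell, and 9 rose without controls 7 and 29. The peptide transporter Tap2 rose by 0.76, the proteasome activator Psme2 by 0.61 and the trimming peptidase Erap1 by 0.60. H2-Q4, the class I gene that fell, is described with the shared profile below. Of 11 tested class II genes limma called 0, and 2 had an unadjusted p under 0.05 in each direction. Of 22 tested complement genes 7 rose (31.8%) and 1 fell. The 1 that fell was Itgam, whose dimmer probes changed by 0.79 and 0.25. C3, the central component, had 4.05, 4.11, 4.49, 4.46 and 4.16 on the NRCWE-043 arrays, against 2.56, 2.04, 2.55, 3.60 and 2.67 on the control arrays, and rose by 1.57 (SE 0.27, adjusted p = 0.00028). Cfb, of the alternative pathway, rose by 1.19 and the C3a receptor C3ar1 by 0.69.

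Among 26 tested pattern recognition and inflammasome genes 12 rose (46.2%). The lectin receptors Clec4d and Clec4e rose by 1.47 and 0.85, without overlap. The inflammasome adaptor Pycard had 1.04, 1.48, 1.43, 2.25 and 1.09 on the NRCWE-043 arrays, against 0.27, 0.49, 0.44, 0.89 and -0.08 on the control arrays, and rose by 1.06 (adjusted p = 0.031). The scavenger receptor Msr1 rose by 0.92, the lipopolysaccharide co-receptor Cd14 by 0.91 and the bacterial RNA sensor Tlr13 by 0.75.

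Lists of neutrophil and monocyte markers had higher means on most NRCWE-043 arrays than on most control arrays. Of 15 tested neutrophil markers 6 rose (40%) and 1 fell, and the mean log2 ratio of the list was 1.75 to 2.01 on the NRCWE-043 arrays, against 0.72 to 1.48 in 4 controls and 2.03 in control 30. The granule genes Mmp8 and Mmp9 rose by 0.64 and 0.75, and Retnlg by 1.32. S100a8, an abundant neutrophil protein, was not called (1.31, adjusted p = 0.050), and neither was S100a9 (0.60). Of 15 tested monocyte and interstitial macrophage markers 5 rose (33.3%) and 2 fell. The mean of that list was 1.60 to 2.15 on the NRCWE-043 arrays, against 1.28 to 1.72 on the control arrays. The Fc receptor Fcgr1 rose by 0.97 and the matrix proteoglycan Vcan by 0.83. A second Vcan probe of similar brightness changed by 0.03, and the call of Vcan was lost with the mean over probes. Itgam and F10 are the 2 that fell, and both have a dimmer probe that was higher, as given below. Of 14 tested T and NK cell markers limma called 0, and 0 had an unadjusted p under 0.05, while 3 rose without controls 7 and 29.

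Of 16 alveolar macrophage markers 4 fell (25%) and 1 rose (6.25%), a share near that of all features. With median centring limma called 0 of them lower (2 by an unadjusted p under 0.05), and their median was 0.20, against -0.06 with loess. Ear2, an eosinophil-associated ribonuclease, had 6.10, 6.40, 6.36, 6.45 and 6.45 on the NRCWE-043 arrays, against 7.16, 6.94, 7.10, 7.28 and 7.36 on the control arrays, and fell by 0.82 without overlap. Ear1 fell by 1.16 with overlap, and Pparg, a factor of these cells, fell by 0.41. The scavenger receptor Marco was not called (0.56, with a value on 4 NRCWE-043 arrays). Genes of alternative activation rose in 4 of 14 cases (28.6%). Arg1, which breaks down arginine, had 2.39, 3.14, 3.65, 3.17 and 2.36 on the NRCWE-043 arrays, against 0.36, 0.30, 0.74, 1.01 and 0.12 on the control arrays. It rose by 2.44 (SE 0.35, 5.41-fold, adjusted p = 3.8e-05). The lectin Clec10a rose by 0.93.

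Of 22 tested cell cycle genes 8 rose (36.4%), and 6 without controls 7 and 29. The helicase subunits Mcm5, Mcm6 and Mcm2 rose by 1.02, 0.97 and 0.93, the ribonucleotide reductase subunit Rrm2 by 0.83 and the G1 cyclin Ccne1 by 0.66. The call of Rrm2 was lost in 13 of 27 alternatives. Mki67, a proliferation marker (0.85, adjusted p = 0.13), and the mitotic cyclin Ccnb1 (0.34) were not called. Mki67 differed by -0.42 within slide 1 and by 2.04 within slide 3.

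Chaperones of the endoplasmic reticulum rose, while cytosolic heat shock genes were not called. The unfolded protein response list had 22 tested genes, of which 11 rose (50%) and 1 fell. Hspa5, the main chaperone of the reticulum, had 0.90, 0.38, 0.69, 0.66 and 0.78 on the NRCWE-043 arrays, against -0.02, -0.21, -0.82, -0.45 and -0.26 on the control arrays, and rose by 1.03 (adjusted p = 0.0024). Its cofactor Sdf2l1 rose by 1.36, Manf by 0.83, and Calr by 0.83 over 4 NRCWE-043 arrays. The pseudokinase Trib3 fell by 0.41, and the stress factor Ddit3 was not called (-0.21). Of 15 tested heat shock genes limma called 0, and 2 had an unadjusted p under 0.05 in each direction. Without controls 7 and 29, 2 fell.

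Of 23 tested cholesterol synthesis genes 10 rose (43.5%). The list had a median change of 0.41 and ran from -0.66 to 0.80, and 1 member fell without controls 7 and 29. Idi1, an isomerase of the isoprenoid steps, had 0.64, 0.45, 0.54, 0.85 and 0.51 on the NRCWE-043 arrays, against -0.20, -0.15, -0.27, 0.00 and -0.37 on the control arrays, and rose by 0.80 (SE 0.13, adjusted p = 0.00014). Sqle, Cyp51 (4 NRCWE-043 arrays) and Hmgcs1 rose by 0.71, 0.68 and 0.65. Among 21 genes of lipid synthesis, LXR targets and oxysterols 3 rose and 4 fell, and 2 fell without controls 7 and 29. Ch25h, which makes 25-hydroxycholesterol, rose by 1.34, Cyp7b1, which breaks it down, by 1.33, and the oxysterol receptor Gpr183 by 0.67. The cholesterol exporters Abca1 and Abcg1 fell by 0.60 and 0.57, and Apoe by 0.58. The call of Abca1 was lost in 11 of 27 alternatives and that of Abcg1 in 10.

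Among 17 tested metalloproteinases and inhibitors 5 rose (29.4%) and 1 fell. Timp1, an inhibitor of metalloproteinases, had 1.05, 1.70, 1.74, 1.74 and 0.84 on the NRCWE-043 arrays, against -2.49, -2.76, -3.03, -0.22 and -2.54 on the control arrays. It rose by 3.62 (SE 0.57, 12.3-fold, adjusted p = 9.4e-05), with control 29 the highest control. Mmp3 rose by 1.08 and Mmp2 fell by 0.86. Of 23 tested matrix genes 4 rose (17.4%), among them the adhesion protein Tgfbi (2.14-fold). In coagulation and fibrinolysis 3 of 18 rose and 3 fell. F10 was among those that fell, while its dimmer probe changed by 1.00. Thbs1, a platelet and matrix protein, rose by 1.03, the transglutaminase F13a1 by 0.86, and the anticoagulant Thbd of endothelium fell by 0.71.

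Of 20 tested mucus and ion transport genes 3 rose (15%) and 1 fell, and 2 fell without controls 7 and 29. Slc26a4, an anion exchanger of airway epithelium, had 5.95, 5.47, 5.71, 6.17 and 4.37 on the NRCWE-043 arrays, against 4.59, 1.48, 1.23, 4.89 and 0.97 on the control arrays. It rose by 2.90 (SE 0.74, adjusted p = 0.0097), and controls 2 and 29 lay near the treated arrays. The ion pump regulator Fxyd4 rose by 2.08 and the mucin Muc4 by 0.93. The mucin Muc5b was not called (2.83-fold, adjusted p = 0.086). Ly6i and Ly6f, of the Ly6 family of surface proteins, rose by 2.33 and 1.97, and the gene AA467197 by 2.48.

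Targets of the oxidant-responsive factor NRF2 did not move one way. Of 24 tested members 3 rose (12.5%) and 4 fell (16.7%), and without controls 7 and 29, 2 rose and 6 fell. Hmox1, which breaks down heme, had -0.60, -0.64, -0.12, -0.82 and -0.25 on the NRCWE-043 arrays, against -3.33, -1.43, -4.07, -3.95 and -3.21 on the control arrays. It rose by 2.71 (SE 0.32, 6.55-fold, adjusted p = 4.1e-06), and control 7 lay 70% of the way from the other controls to the NRCWE-043 mean. The second Hmox1 probe, which is dimmer, changed by 0.81. Hmox1 correlated with Snap25, described with the shared profile below, at -0.83 over the 10 arrays and -0.87 over all 35. The aldo-keto reductase Akr1b8 rose by 0.66 and glutathione reductase Gsr by 0.38. Nqo1 (-0.15) and Gclc (0.37) were not called. The antioxidant element, searched as TGAC, any 3 bases and GC on both strands, was found in 5 of 20 promoters of the list (25%), against 3112 of all 27025 (11.5%). The 5 were those of Gclm, Txnrd1, Gsta3, G6pdx and Prdx1. The 1 rising member with a promoter in the table had no match.

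Of 20 tested heme and iron genes 5 rose (25%) and 2 fell. Besides Hmox1 these were the metalloreductase Steap4 (1.25), the metal transporters Slc11a1 (0.70) and Slc39a14 (0.65) and the transferrin receptor Tfrc (0.61). The metallothionein Mt2 was not called (0.90, adjusted p = 0.14).

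Detoxifying enzymes and club cell genes fell. Of 17 tested xenobiotic enzymes 6 fell (35.3%, against 4.88% of all features), with a median change of -0.57, and 9 fell without controls 7 and 29. With median centring limma called 0 xenobiotic enzymes and 0 club cell markers, of which 4 and 1 were lower at an unadjusted p under 0.05, and each gene named in this paragraph as falling lost its call. Of 9 tested club cell markers 5 fell (55.6%), with a median of -0.77, and the mean of the list was 4.50 to 5.06 on the NRCWE-043 arrays, against 5.05 to 5.72 on the control arrays. Aldh1a1, which oxidises retinal, had 4.82, 4.82, 4.58, 4.36 and 5.30 on the NRCWE-043 arrays, against 6.30, 5.86, 6.69, 5.67 and 6.99 on the control arrays. The groups did not overlap, and it fell by 1.53 (SE 0.22, adjusted p = 4.8e-05). Scgb1a1, the main secretory protein of club cells, had 6.88, 7.29, 7.33, 7.30 and 7.30 on the NRCWE-043 arrays, against 8.00, 7.57, 7.88, 8.15 and 8.62 on the control arrays, and fell by 0.83. The glutathione transferases Gsta2, Gsta3 and Gstm1 fell by 1.38, 1.25 and 1.02. Aldh1a1, Gsta3 and Scgb1a1 correlated with Snap25, described with the shared profile below, at 0.92, 0.89 and 0.87 over the 10 arrays. Over all 35 arrays the correlations were 0.5, 0.7 and 0.78. Ephx1, Cbr2 and the club cell cytochrome Cyp2f2 fell by 0.75, 0.87 and 0.77. Limma called 0 of the alveolar type 2 markers, and 3 had an unadjusted p under 0.05, 1 of them higher in NRCWE-043. Sftpc was -0.56 (adjusted p = 0.11). Of 9 alveolar type 1 markers Pdpn and Aqp5 rose, by 0.71 and 0.61, while a second Aqp5 probe changed by 0.10. They were the only 2 of the 9 with a change above 0, and the median of the list was -0.14.

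**Figure D3:**
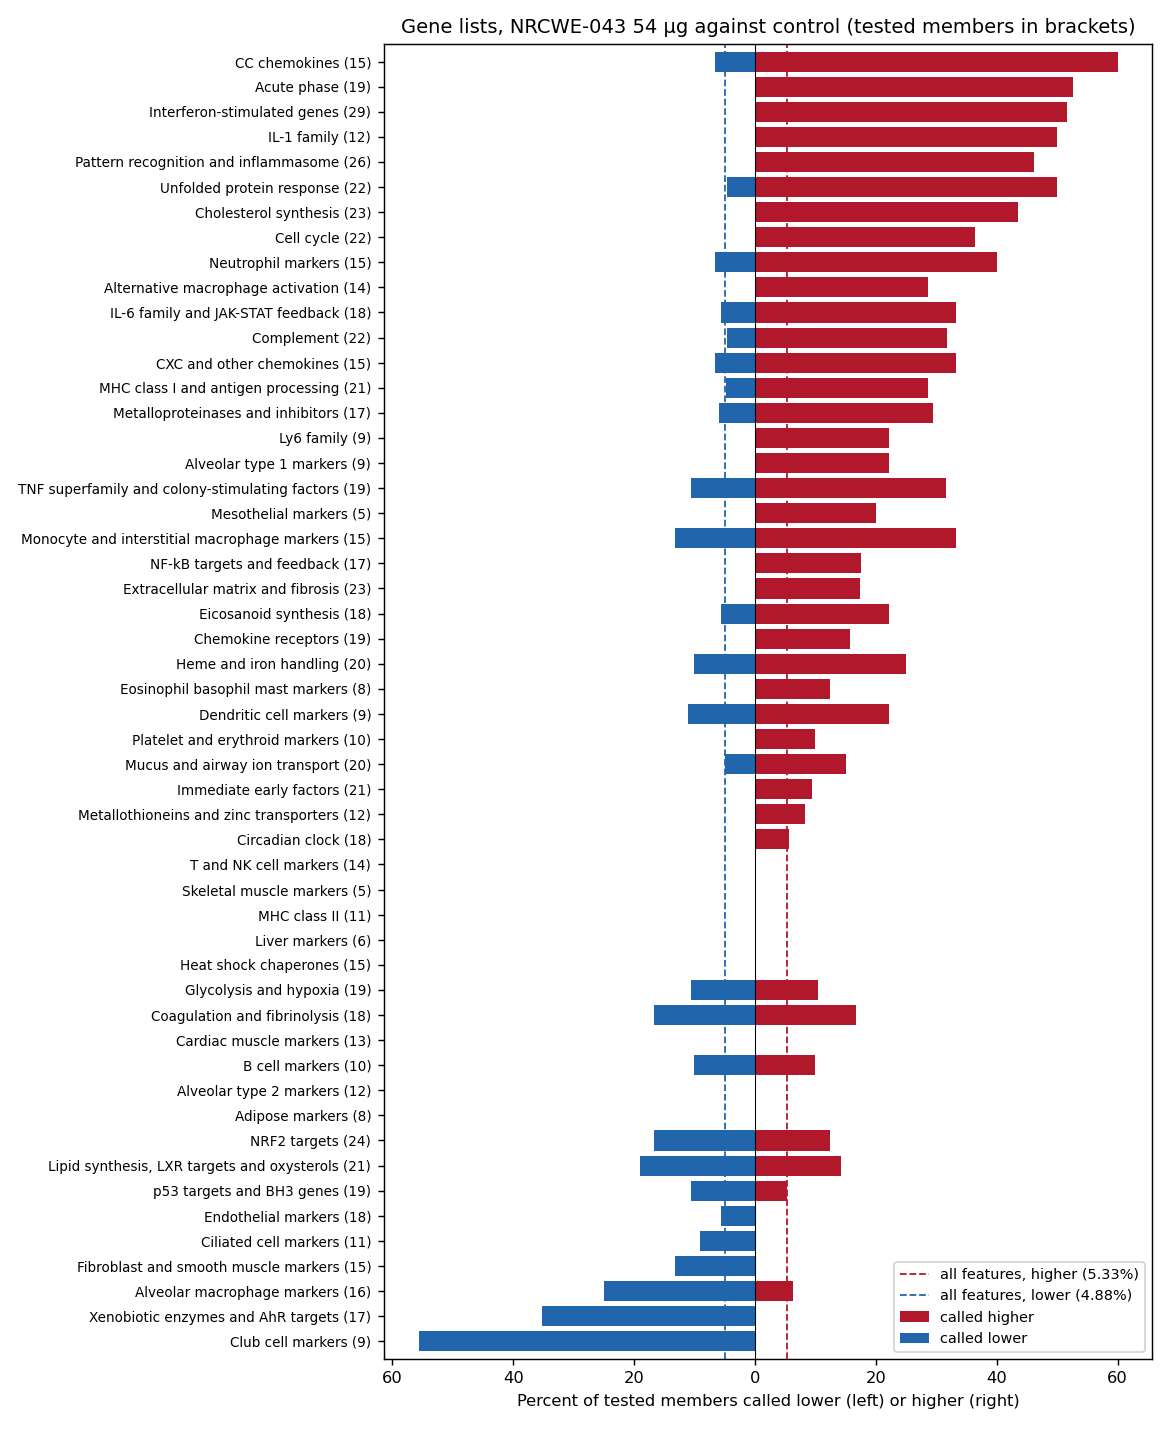
Percent of the tested members of each gene list (rows) called lower (blue, to the left) or higher (red, to the right) in NRCWE-043 54 µg against control, with dashed lines at the shares of all features, 5.33% higher and 4.88% lower. CC chemokines reach 60% higher, and club cell markers 55.6% lower.

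A set of the falling genes shared 1 profile over the arrays. H2-Q4, a class I gene, had 0.11, 0.29, -0.41, -0.31 and 0.58 on the NRCWE-043 arrays, against 3.17, 0.64, 2.57, 1.90 and 3.52 on the control arrays. It fell by 2.31 (SE 0.32, adjusted p = 3.2e-05), and control 7 lay next to the treated arrays. Rab5c, a GTPase of early endosomes, had 0.22, 0.11, -0.04, -0.25 and 0.10 on the NRCWE-043 arrays, against 1.82, 0.42, 1.74, 2.08 and 2.30 on the control arrays, and fell by 1.65. The sulfate transporter Slc26a1 fell by 2.06, Fbxl12os by 1.84, the ubiquitin ligase Marchf1 by 1.57, the kinase Ulk3 by 1.55 and Vash1, a tubulin carboxypeptidase, by 1.53. BC061237 was at least 3.16-fold lower, since it was not well above background on the NRCWE-043 arrays. Myzap had another pattern, at 2.74, 1.84, 0.10, -0.07 and -0.17 on the NRCWE-043 arrays, against 2.89 to 3.29 on the control arrays.

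The profile was followed through Snap25, a synaptic fusion protein chosen after its values were seen. Snap25 had 0.73, 0.66, 0.19, 0.01 and 0.50 on the NRCWE-043 arrays, against 2.36, 0.90, 1.80, 1.54 and 2.92 on the control arrays. Over these 10 arrays 529 of the 1246 falling features (42.5%) correlated with Snap25 above 0.9, against 655 of all 25534 features (2.57%). Over all 35 arrays 269 of the falling features did (21.6%), against 269 of all features (1.05%). These correlations are a description, since the points share their arrays and groups, and the choice of a falling gene favours other falling features. Genes best known from other tissues had nearly the same values, among them the opioid receptor Oprm1, the tachykinin receptor Tacr2 and the bone hormone Fgf23, which fell by 1.46, 1.48 and 1.51. Dimmer probes of the same genes often did not follow. Itgam fell by 1.34 at its brightest probe and changed by 0.79 and 0.25 at the others. F10 fell by 1.36 and changed by 1.00 at its dimmer probe, Marchf1 by 0.47, Tacr2 by 0.43 and Ulk3 by -0.19. The mean log2 Cy5 signal was 7.65 and 6.62 at these Itgam probes, against 13.9 at the brightest. It was 6.63 against 13.22 for Tacr2 and 10.64 against 12.78 for F10. Vash1 changed by -1.53 and -1.49 at probes of equal brightness (14.82), and by 0.06 at its dimmest (7.23). The dimmer probe of BC061237 changed by -0.59.

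Control 7 lay closer to the NRCWE-043 mean than to that of the other controls for 727 of the 1246 falling features (58.3%), and for 328 of the 1361 rising ones (24.1%). Of the 26 features that fell by over 2, 23 were probes with no matched gene, as were 2 of the 19 that rose by over 2. One falling probe among them had -2.32, -2.52, -3.34, -3.48 and -2.99 on the NRCWE-043 arrays, against 4.14, -2.05, 3.49, 3.52 and 3.82 on the control arrays, where control 7 alone was low, and fell by 5.51 (SE 0.65, adjusted p = 4.1e-06). The rising genes Lamtor2, a lysosomal scaffold protein, and Epha1, an ephrin receptor, showed the mirror pattern. Over the 10 arrays Lamtor2 correlated with Snap25 at -0.9 and Hmox1 at -0.83. Over all 35 arrays these correlations were -0.9 and -0.87. Lamtor2 had 0.37, 0.31, 0.24, 0.35 and 0.32 on the NRCWE-043 arrays, against -1.38, 0.11, -1.52, -1.49 and -1.59 on the control arrays. Epha1 had 1.65 to 2.07 on the NRCWE-043 arrays, against 2.11 in control 7 and 0.08 to 0.38 in the other controls. Without control 7 the count of called features was 3093, and 92.1% of the 2607 remained called. What sets control 7 apart, and whether its label is right, was not tested, and the control means given here include it.

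**Figure D4:**
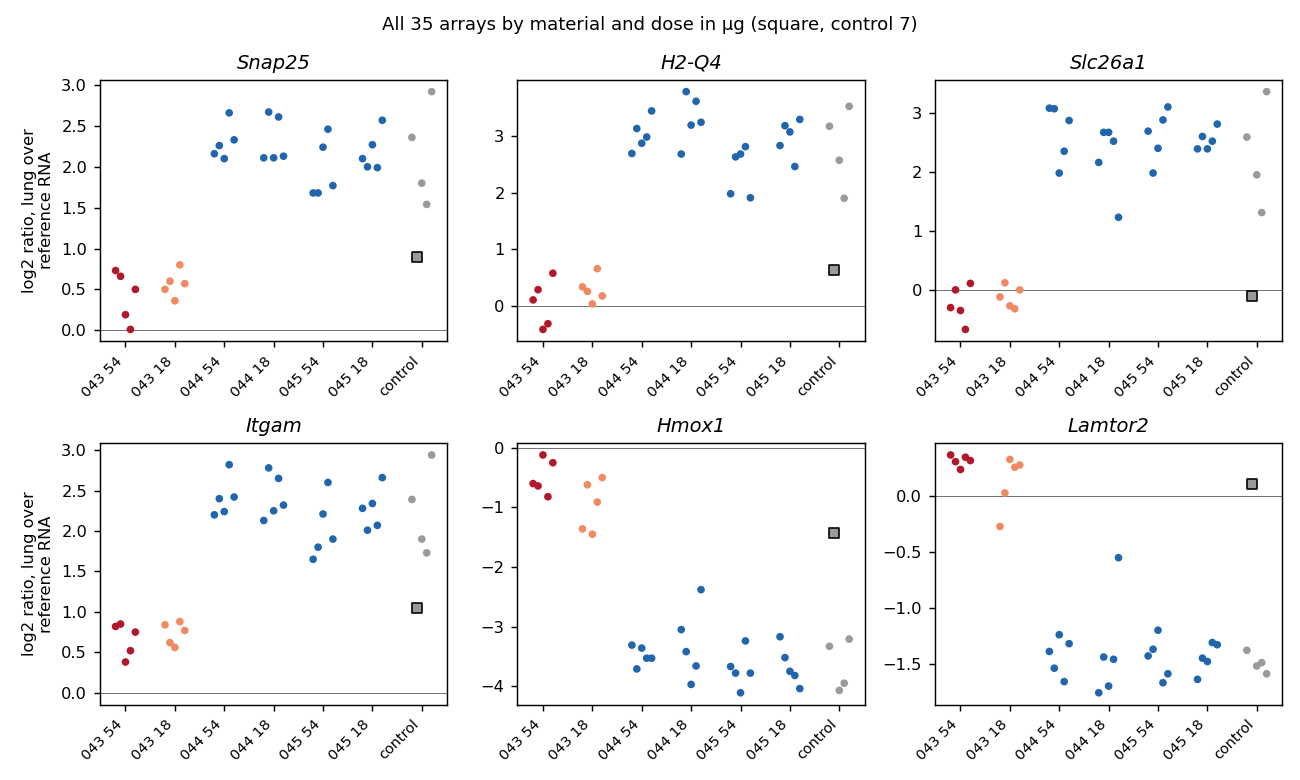
Log2 ratio (y axis) of 6 genes on all 35 arrays, grouped by material and dose in µg (x axis), with NRCWE-043 at 54 µg leftmost, control rightmost and a square for control 7. Control 7 has Snap25 at 0.90, near the treated arrays, and Lamtor2 at 0.11, above the other controls.

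At the same dose of 54 µg, NRCWE-043 differed from NRCWE-044 at 1941 features (7.6%), 551 higher (2.16%) and 1390 lower (5.44%), or 851 in all with median centring. Hmox1 was higher by 3.00 (adjusted p = 1.1e-07). The clock output gene Dbp and the clock repressors Nr1d1 and Nr1d2 were higher by 3.79, 2.94 and 2.27. Against control these 3 were not called, and in controls Dbp ran from -2.67 to 2.71. H2-Q4, Slc26a1, Gm10375 and Fbxl12os were lower by 2.97, 2.91, 2.55 and 2.54, with Gm10375 well above background on 1 of the NRCWE-043 arrays. BC061237 was lower too, but was not well above background on any NRCWE-043 array. Leading inflammatory genes were not called, with intervals of varied width. Saa3 differed by -0.24 (95% interval -2.26 to 1.79), Ccl2 by -0.12 (-0.93 to 0.68), Cxcl10 by -0.07 (-1.02 to 0.88) and Arg1 by -0.04 (-0.75 to 0.66). Other immune genes differed. Tnfrsf12a was higher (adjusted p = 0.0029), as were Cxcr2 by 0.84, Tap2 by 0.61 and Tnfrsf1b by 0.48. Csf3r, which correlated with Snap25 at 0.9 over all 35 arrays, was lower by 1.01 (adjusted p = 4.7e-06). Cxcl5 was lower by 1.97 (-3.12 to -0.81, adjusted p = 0.025).

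NRCWE-043 differed from NRCWE-045 at 54 µg at 1377 features (5.39%), 384 higher (1.5%) and 993 lower (3.89%). Without replicate 32 of NRCWE-045 the count was 908, and with median centring 529. Hmox1 was higher by 3.23, Sertad3 by 2.09, Gm5176 by 1.99, Lamtor2 by 1.77 and Epha1 by 1.74. Slc26a1, Pip5kl1, H2-Q4, 2810459M11Rik and Gm10375 were lower by 2.85, 2.41, 2.35, 2.25 and 2.13. Some inflammatory genes were higher too. Orm2 was higher by 1.66 (adjusted p = 0.0081), Saa2 by 1.55, Arg1 by 1.37, Bst2 by 1.38 and Ccl4 by 1.04. Saa3 (2.03, interval 0.01 to 4.05, adjusted p = 0.32) and Ccl2 (0.73, -0.07 to 1.53) were not called.

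Between the doses of NRCWE-043, 295 features differed (1.16%), 234 higher (0.916%) and 61 lower (0.239%) at 54 µg than at 18 µg. Saa3, Saa1, Cxcl10, Orm2 and Saa2 were higher at 54 µg by 3.84, 3.22, 2.63, 2.35 and 2.11, and Arg1 by 2.04. Vps51, Aldh1a1, Reep6, 1110017D15Rik and 1700088E04Rik were lower by 1.35, 1.07, 0.99, 0.97 and 0.96. Ccl2 (1.45, interval 0.65 to 2.25, adjusted p = 0.057) and Timp1 (2.07, 0.92 to 3.22, adjusted p = 0.061) missed the threshold. Of the shared profile, H2-Q4 differed between doses by -0.24 (-0.90 to 0.41) and Snap25 by -0.15 (-0.62 to 0.32), and neither was called. Hmox1 differed by 0.48 (-0.16 to 1.12), also without a call. Snap25 ran from 0.36 to 0.80 at 18 µg and from 0.01 to 0.73 at 54 µg of NRCWE-043, and from 1.68 to 2.67 over the 4 groups given the other materials. The count of 295 rests on single arrays. It was 7 without replicate 5 of the 18 µg group, 45 to 149 without replicate 9, 16, 19 or 22 of the 54 µg group, and 444 to 566 without replicate 20, 26 or 33 of the 18 µg group. Median centring gave 6, all higher, and the deposited values gave 351, 234 higher and 117 lower.

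**Figure D5:**
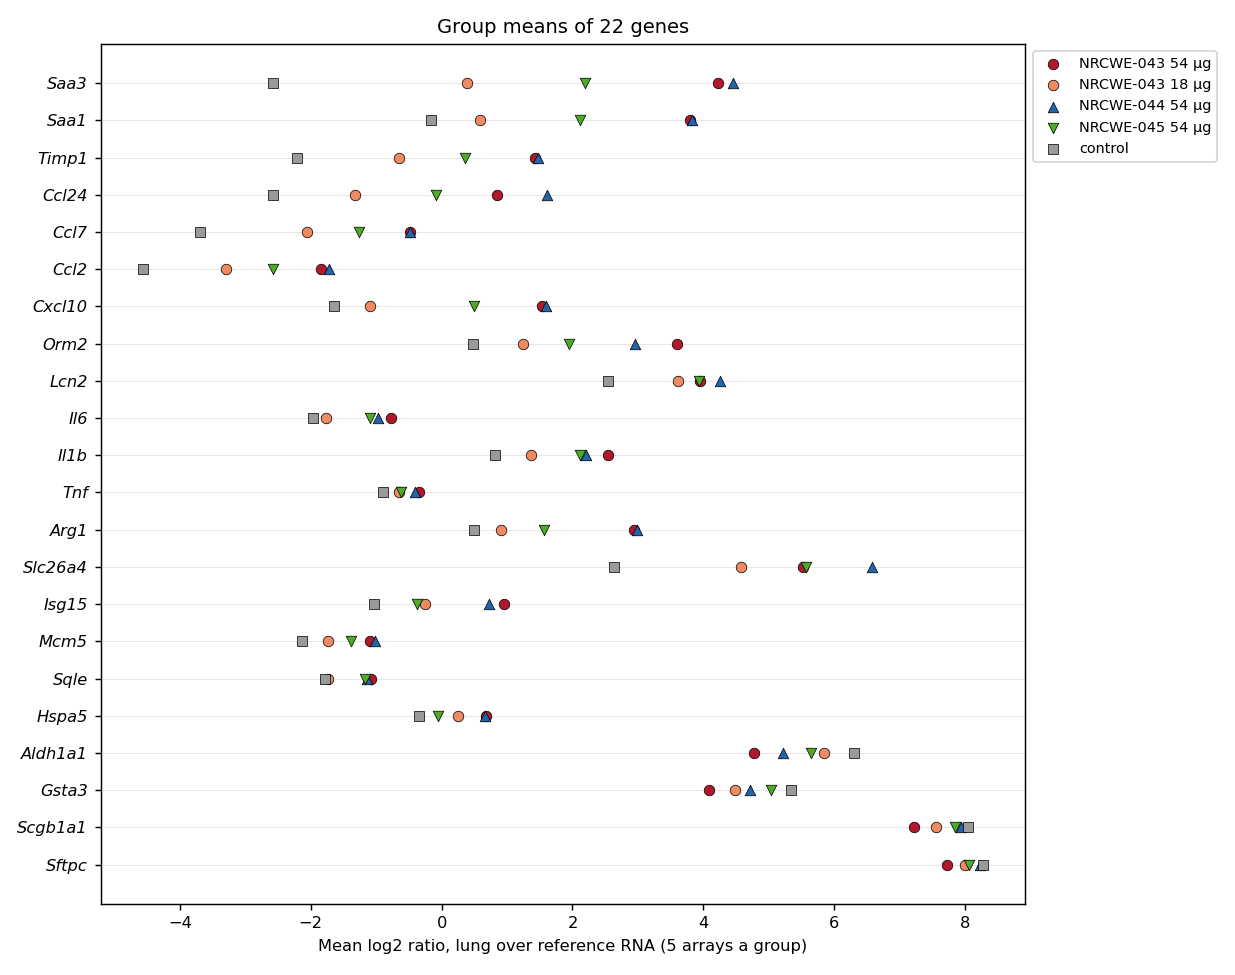
Group means of the log2 ratio (x axis) of 22 genes (rows) in NRCWE-043 at 54 and 18 µg, NRCWE-044 and NRCWE-045 at 54 µg and control, over 5 arrays each. Saa3 differs between 54 and 18 µg of NRCWE-043 by 3.84, while its mean in NRCWE-043 at 54 µg differs from that in NRCWE-044 by -0.24.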

How the data were processed

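Per the labels, lung RNA was labelled with Cy5 and universal mouse reference RNA with Cy3 without dye swaps, over 35 arrays with 200 ng of RNA a sample. The scanner files hold spot intensity values which, per the file headers, were extracted by the authors with Feature Extraction 11.0.1.1. The series values are log2 ratios as deposited by the authors, whose normalization the sources do not give, and served as an alternative. Here, median intensities were corrected with normexp (offset 50) and loess-normalized within arrays in limma (version 3.58.1, with R 4.3.3; the data.table package was at version 1.17.8), leaving out control spots and marked spots. A probe was tested if its Cy5 signal stood well above background on 3 or more arrays of any group of 5. The brightest probe stood for a gene, which left 25534 features, 15621 with a symbol matched through RefSeq accessions. A limma model over all 35 arrays, with 7 groups of 5, gave changes and p-values, adjusted by Benjamini-Hochberg over all features. The number of arrays limits the precision. Alternatives changed background, normalization, filter, probe summary, slide blocks, variance model and arrays. Genes named are the 15 largest called rises and falls whose groups do not overlap, control 7 aside, the 5 largest in each direction of each direct comparison, up to 6 called and 3 other members of each list, and members that define it. Further list members, Snap25, Oprm1, Tacr2, Fgf23 and the unnamed probe were chosen after their values were seen. Some genes that this rule names are not reported here. The members and lists were chosen with earlier results of these data known. The limma fit was tested on simulated log ratios with independent normal noise. These held no slide effect, outlying array, shared profile or normalization step, so the test does not cover these.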

Additional observations from a re-analysis of the deposited data

Results flagged for a closer look

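Dixon's test at the 95% level marked 28 of the 349 groups of 5 arrays examined (8.02%), where chance alone marks about 5%. On the NRCWE-043 arrays, replicate 3 was low for Ccl8 (2.45), Icam1 (2.98), Tgfbi (4.23), Scgb1a1 (6.88) and Ear2 (6.10) and high for Gsr (0.56). Replicate 22 was low for Ccl24 (-1.17) and high for Cxcl9 (3.46), Il1r2 (2.74), Stat3 (1.55) and Gsta3 (4.85). Replicate 19 was high for Pf4 (0.74) and Selp (1.72), and replicate 16 was low for Il1b (1.83). Among controls, replicate 29 was high for Saa3 (1.31), Orm2 (1.91), Orm1 (1.31), Ccl7 (-2.25), Cyp7b1 (2.97), Timp1 (-0.22), Pdpn (2.44) and Ly6i (2.33). Control 7 was high for Fgb (1.69), Lamtor2 (0.11) and Epha1 (2.11) and low for Ifit1 (-0.55) and Fcgr1 (-0.29). Control 30 was high for Cyp2f2 (7.35). All values are log2 ratios on the array that stood apart from the other 4 of its group.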

How the results depend on the processing

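No pairing by label was possible, because the replicate numbers are unique across the groups, while slides were used as blocks in alternatives. Median centring in place of loess shifted the median of all features to 0.122 and gave 524 called features (351 higher and 173 lower). Of the 2607 called with loess, 498 (19.1%) stayed called in the same direction. Median centring gave 851 calls against NRCWE-044, 529 against NRCWE-045 and 6 between the doses. Under median centring 76 of the 149 called named genes kept their call, and none of the 149 turned its direction under any alternative. That does not hold for all features. From the Cy5 channel alone, 57.6% of the 2607 stayed called in the same direction, and 35 were called in the opposite direction. Calls lost in many of the 27 alternatives included those of Cxcl13 (18), Gsr (13), Rsad2 and Mmp8 (12 each), and Muc4, Cyp2f2 and Il6ra (11 each). Feature Extraction's processed signals gave 3312 calls, 1013 higher and 2299 lower. Leaving out single arrays gave 1441 (without control 30) to 3093 (without control 7) calls against control, 1454 to 1860 against NRCWE-044, 908 (without NRCWE-045 replicate 32) to 1365 against NRCWE-045, and 7 to 566 between the doses. Without controls 7, 29 and 30 together 1540 were called, with a 1.5-fold minimum 1180, and with the slide as a fixed block 679 between the doses. The causes were not tested. Among lists with at least 1 called member, the medians of 12 changed sign. Lists with 0 called members were not counted. Of these, heat shock genes gave 0.42 with median centring, against -0.06 with loess. Alveolar type 2 markers gave 0.31, against -0.02. That of NRF2 targets was 0.25 with median centring, 0.03 with the slide block, 0.04 without controls 7, 29 and 30, and -0.13 to 0.02 without single arrays (0.02 without control 30). That of lipid and LXR genes was 0.35 with median centring, 0.05 with scaling between arrays, 0.03 with the slide block, 0 with array weights, 0.07 without the 3 controls, and -0.09 to 0.04 without single arrays (NRCWE-043 replicates 3, 16 and 22, at 0.02, 0.01 and 0.04, and control 30, at 0.01). Alveolar macrophage markers gave 0.2 with median centring, 0.23 with scaling, and -0.18 to 0.02 without single arrays (0.02 without NRCWE-043 replicate 16 and 0.01 without control 29). With median centring and with scaling, alveolar type 1 markers gave 0.03 and 0.09, and endothelial markers 0.1 and 0.14. Fibroblast markers gave 0.13 with median centring and 0 with the slide block. Processed signals gave -0.07 for p53 targets, -0.01 for clock genes and -0.01 for dendritic cell markers. Without single arrays p53 targets gave -0.04 (NRCWE-043 replicate 3) to 0.08. Clock genes gave 0 and -0.01 without replicates 19 and 22 and -0.02 without control 30. Metallothioneins gave -0.01 from Cy5 alone, glycolysis genes -0.02 with scaling, and the Ly6 family -0.02 with a stricter filter.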

Other observations

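Other gene groups changed in few members. Of 21 tested immediate early genes 2 rose, Ier3 (1.32) and Atf3 (0.51), and of 19 p53 targets and BH3 genes the cell death gene Bax rose (1.04) while Trp53inp1 and Bmf fell by 0.65 and 0.58, with 3 falling without controls 7 and 29. Of 18 genes of eicosanoid synthesis 4 rose, among them the leukotriene B4 receptor Ltb4r1 (0.94) and the cyclooxygenase Ptgs1 (0.84), and the prostaglandin E synthase Ptges fell by 0.50, with 2 falling without controls 7 and 29. Of 18 clock genes Bhlhe40 rose (0.86), and without controls 7 and 29 the clock list had 4 rising and 3 falling members. Of 11 markers of ciliated cells Tekt4 fell by 0.62, and of 18 endothelial markers Ramp2 fell by 0.81. Of 10 B cell markers 1 rose and 1 fell, and 5 rose without controls 7 and 29.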
